A study of Mus musculus with 6 samples.

Results

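Cabozantinib (XL184) is a small-molecule inhibitor of receptor tyrosine kinases, and the genes described here encode secreted or cell-surface ligands of the receptors it blocks. They are Hgf, Gas6, Pros1, Kitl, Vegfa, Vegfc, Gdnf, Angpt1, Angpt2 and Flt3l, a list of 10 genes out of 20659 genes named on the array. The 10 genes had 11 probes named for them through RefSeq accessions, and all of these were taken. Primary osteoblasts were isolated from the calvaria of CD1 mice aged 2 to 5 days, and each condition was measured on 2 arrays of total RNA labelled with a single dye. Undifferentiated osteoblasts were grown to confluence in medium with serum and received no cabozantinib. Differentiated osteoblasts were kept in differentiation medium for 30 days after confluence, also without cabozantinib. Cabozantinib-treated osteoblasts were kept in the same medium for 30 days with the inhibitor at 100 nM, the dose given in the methods of the study. The 30 days are those of the labels and the array methods, and the study names a shorter time for the arrays elsewhere. No source says whether the 2 arrays of a condition came from separate isolations, so the spread between arrays behind every p value may be technical. The limma p values take that spread in part from all probes tested.

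Each ligand acts by bringing together copies of its receptor at the surface of a target cell, which then phosphorylate each other and start signaling. HGF binds MET, stem cell factor (Kitl) binds KIT, and FLT3 ligand binds FLT3. GAS6 binds TYRO3, AXL and MERTK, and protein S (Pros1) binds TYRO3 and MERTK. VEGFA signals mainly through VEGFR2 (Kdr), VEGFC mainly through VEGFR3 (Flt4), GDNF through RET together with its co-receptor GFRA1, and the angiopoietins through TIE2 (Tek). Osteoblasts and their relatives in the bone marrow are known sources of several of these ligands, which act on blood vessels, blood-forming cells, nerves and, in metastasis, tumor cells.

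The stretches of genome just upstream of the transcription starts are shown for the 3 ligands that passed the test after differentiation, Gas6, Hgf and Gdnf, and for Vegfa, a known target of the hypoxia response. They are the 250 bases before a RefSeq transcription start in GRCm38.p6, written 5′ to 3′ on the strand of the gene, and the arrays themselves did not measure them.
Gas6, chr8:13494536-13494785, minus strand: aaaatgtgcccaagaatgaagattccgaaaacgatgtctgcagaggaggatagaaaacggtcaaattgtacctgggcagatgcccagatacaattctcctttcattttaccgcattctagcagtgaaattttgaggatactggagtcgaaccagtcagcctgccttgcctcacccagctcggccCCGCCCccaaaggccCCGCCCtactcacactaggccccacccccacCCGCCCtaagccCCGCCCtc
Hgf, chr5:16553245-16553494, plus strand: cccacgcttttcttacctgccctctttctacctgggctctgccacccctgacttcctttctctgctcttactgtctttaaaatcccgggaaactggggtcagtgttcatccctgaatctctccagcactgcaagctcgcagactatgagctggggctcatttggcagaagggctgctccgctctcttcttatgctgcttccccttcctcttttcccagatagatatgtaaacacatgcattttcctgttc
Gdnf, chr15:7809798-7810047, plus strand: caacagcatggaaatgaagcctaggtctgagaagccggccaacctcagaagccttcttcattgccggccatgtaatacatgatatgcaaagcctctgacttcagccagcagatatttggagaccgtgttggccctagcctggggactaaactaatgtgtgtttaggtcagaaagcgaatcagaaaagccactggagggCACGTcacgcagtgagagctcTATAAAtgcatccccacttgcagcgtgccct
Vegfa, chr17:46032378-46032627, minus strand: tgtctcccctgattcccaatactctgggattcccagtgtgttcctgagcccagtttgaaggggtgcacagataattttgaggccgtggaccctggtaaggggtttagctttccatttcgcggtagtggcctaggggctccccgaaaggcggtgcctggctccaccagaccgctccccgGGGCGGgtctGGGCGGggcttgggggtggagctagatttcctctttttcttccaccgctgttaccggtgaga

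Capitals mark matches, on either strand, to 4 short motifs that do not overlap each other in these windows. They were the GC box GGGCGG, the TATA motif TATAAA, the hypoxia response core ACGTG and the RUNX motif TGTGGT. The Gas6 window had 4 GC boxes, all written as CCGCCC and all near the start. The Hgf window had no match to any of the 4 motifs. The Gdnf window shown had a TATA motif 31 bases before the start and a hypoxia response core 52 bases before it, written as CACGT. The Vegfa window shown had 2 GC boxes and no hypoxia response core. Hgf and Gdnf each had a further window, chr5:16553651-16553900 and chr15:7813477-7813726, with no match to any of the 4 motifs. Vegfa had a further window, chr17:46025164-46025413, before a start that lies downstream of the one shown. It had 1 GC box and a hypoxia response core 211 bases before that start. Whether any of these matches acts in regulation was not tested. Over 32851 RefSeq windows of the same length, 32.7% held a GC box, 12.4% a TATA motif, 16.6% a hypoxia response core and 14.0% a RUNX motif. RefSeq windows were matched for 8 of the 10 genes, 11 windows in all. Of these 7 held a GC box, 2 (the Gdnf window shown and the further Vegfa window) a hypoxia response core and none the RUNX motif. Angpt1 and Angpt2 had no window in the table used.

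Levels are log2 signals relative to the 75th percentile of the same array, so that 0 stands for a signal equal to that percentile. A probe is called well above background as the scanner software called it, and 10 of the 11 ligand probes passed the filter of at least 2 such arrays. Each array had 43020 non-control spots, between 58.8% and 72.9% of them well above background and none saturated. The undifferentiated and differentiated arrays were read in 1 scan and both cabozantinib arrays in another, so cabozantinib and the scan cannot be told apart in any comparison below. The cells expressed osteoblast markers in all conditions, with Col1a1 between 6.73 and 8.23 and Alpl between 3.23 and 4.38. Of the osteoblast transcription factors, Sp7 was dim and Runx2 cleared the background in undifferentiated cells and on 1 cabozantinib array but on neither differentiated array. Bglap2, which encodes osteocalcin, rose after differentiation by 5.06 (SE 0.50, limma adjusted p = 0.000477). Cell type marker lists that moved with the conditions are given at the end.

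**Figure D1:**
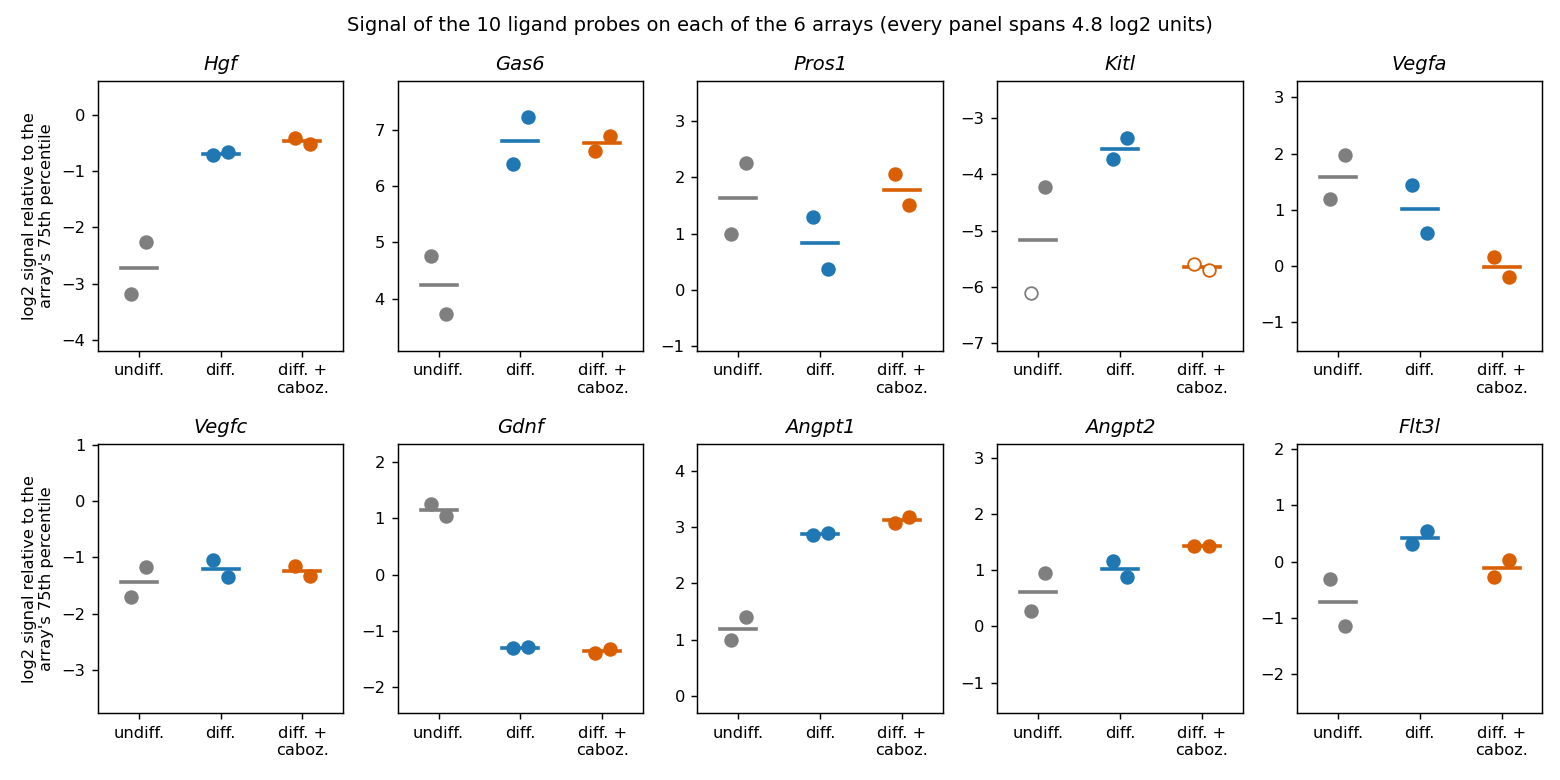
Each panel shows 1 ligand at its tested probe, with the log2 signal relative to the array's 75th percentile on the vertical axis, 1 point for each of the 2 arrays in a condition and a line at their mean. Open points were not well above background. Gas6, Hgf and Angpt1 lie higher, and Gdnf lower, on all 4 arrays of cells in differentiation medium than on the undifferentiated arrays, and Kitl is well above background on both differentiated arrays and on neither cabozantinib array.

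The first comparison asked which ligands changed as osteoblasts differentiated. Gas6 and Hgf were higher in differentiated osteoblasts, by 5.97-fold and 4.09-fold, and Gdnf was lower by 5.47-fold. These 3 probes passed an adjusted p of 0.05 in limma, 2 higher and 1 lower, among 10 ligand probes tested. Of all 27230 probes tested, 10.0% were called in either direction, 4.97% higher and 5.06% lower. The 2 differentiated arrays lay above both undifferentiated arrays for 5 ligands (Hgf, Gas6, Kitl, Angpt1 and Flt3l) and below both for Gdnf, where 24.9% of all probes lay wholly above and 21.4% wholly below. The median difference of the 10 ligand probes was 0.78, against 0.08 over all probes.

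The next comparison asked which ligands changed when cabozantinib was present throughout differentiation. No ligand probe was called in limma, and 1, Kitl, had an unadjusted p under 0.05. Of all probes 2.70% were called, 0.140% higher and 2.56% lower. That is 734 probes, a number that moved with the processing, to 0 after quantile normalization (4803 probes at an unadjusted p under 0.05) and to 8295 under a crossed pairing of the replicate numbers. The cabozantinib arrays lay wholly above the differentiated arrays for Hgf, Pros1, Angpt1 and Angpt2 and wholly below for Kitl, Vegfa, Gdnf and Flt3l. Those are 4 ligands each way, where 14.0% of all probes lay wholly above and 43.6% wholly below. The median difference of the ligand probes was -0.05, against -0.27 over all probes, and the median over all probes was -0.06 after quantile normalization and 0.39 after subtracting each array's median. The direction of a small difference in this comparison therefore depends on the scaling.

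**Figure D2:**
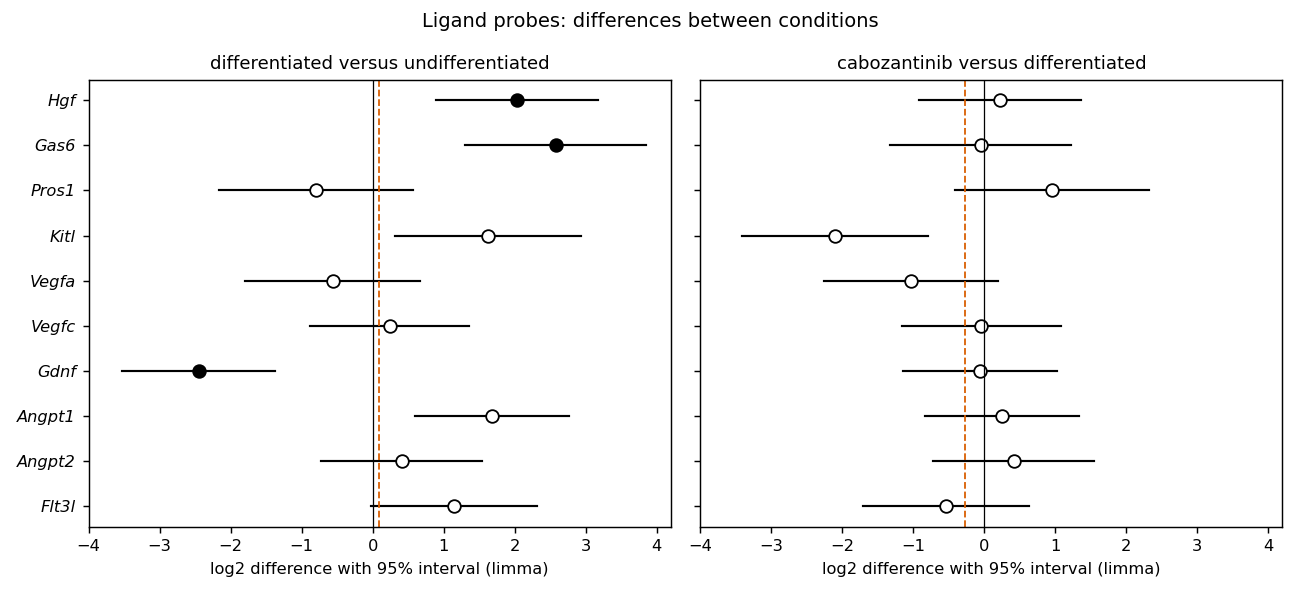
The horizontal axis gives the log2 difference of each ligand probe with its 95% interval from limma, for differentiated against undifferentiated osteoblasts (left) and cabozantinib-treated against differentiated osteoblasts (right). Filled points have an adjusted p under 0.05 (Gas6, Hgf and Gdnf, left panel only), and the dashed line marks the median of all probes.

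Against undifferentiated cells, cabozantinib-treated osteoblasts had 4 called ligand probes, Hgf, Gas6 and Angpt1 higher and Gdnf lower. Of all probes 13.7% were called, 4.47% higher and 9.19% lower, and the split depended on the scaling, since quantile normalization gave 1079 higher and 448 lower probes against 1216 and 2503. Arrays of the groups did not overlap for 5 ligands above and 2 below, where 19.0% and 44.7% of all probes lay wholly above and below. This comparison shares its arrays with the other 2, so its values are not independent of theirs.

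HGF, a growth factor made by mesenchymal cells, is the ligand of MET. Hgf was at -3.18 and -2.26 on the undifferentiated arrays, at -0.72 and -0.65 on the differentiated arrays and at -0.41 and -0.51 on the cabozantinib arrays. The undifferentiated arrays were the lowest of the 6, and all 4 arrays of cells in differentiation medium lay within 0.31 of each other. Hgf rose after differentiation by 2.03 on the log2 scale (SE 0.51, 95% interval 0.89 to 3.18, limma adjusted p = 0.0330), and the cabozantinib arrays differed from the differentiated ones by 0.22 (95% interval -0.92 to 1.37, adjusted p = 0.906). The rise passed the test in 8 of 17 alternatives, with adjusted p values from 0.00425 to 0.308. The call was lost after median subtraction (limma adjusted p = 0.0625) and after normexp correction (log2 difference 1.36, adjusted p = 0.308). It was lost with the authors' values (0.0650), with no filter on dim probes (0.0877) and with only the arrays compared (0.0546). It was also lost without differentiated array 1 (log2 difference 1.86) or 2 (2.20). Without either cabozantinib array the fit is the same as that on only the arrays compared (2.03). Compared with undifferentiated cells, Hgf was higher with cabozantinib by 2.26 (SE 0.51, limma adjusted p = 0.0220). That call was lost after normexp correction (0.214), with the authors' values (0.0666) and with no filter on dim probes (0.0621). It was also lost without cabozantinib array 1 (log2 difference 1.96) or 2 (2.55).

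MET, its receptor, was dim but well above background on all 6 arrays. Met stood at -3.30 and -3.56 on the undifferentiated arrays, at -3.57 and -3.34 on the differentiated arrays and at -4.20 and -4.05 on the cabozantinib arrays. Undifferentiated and differentiated cells overlapped, with a difference of -0.03 (SE 0.49, adjusted p = 0.994), and the cabozantinib arrays were the lowest (log2 difference from differentiated cells -0.67, SE 0.49, adjusted p = 0.499). HGF is secreted as an inactive chain that proteases cut. Of 10 genes for these proteases and their inhibitors, 9 were tested. After differentiation none was called higher and 2 were called lower, where 4.97% and 5.06% of all probes were called. Plat, the tissue plasminogen activator and among those called lower, was well above background only on the undifferentiated arrays. On the percentile scale it was at least 7.30-fold lower after differentiation (adjusted p = 0.00623). The measured log2 difference was -4.50 on that scale, -4.31 after quantile normalization and -1.87 after normexp correction, so the bound does not hold on every scale. The call passed in 11 of 16 alternatives and was lost without undifferentiated array 2, among others. The median of the 9 differences was 0.02 against 0.08 over all probes. A lower bound of this kind sets the brighter group's mean against the lowest signal called well above background on the dimmer group's arrays. It takes no account of the spread between the arrays of a group.

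GAS6, a ligand of the TYRO3, AXL and MERTK receptors, and protein S, a ligand of TYRO3 and MERTK, are vitamin K-dependent. Both ligands also bridge receptors to dying cells. Gas6 was at 4.75 and 3.72 on the undifferentiated arrays, at 6.40 and 7.23 on the differentiated arrays and at 6.63 and 6.90 on the cabozantinib arrays. The undifferentiated arrays lay below the other 4, and the cabozantinib arrays fell between the 2 differentiated ones. Gas6 rose after differentiation by 2.58 (SE 0.57, 95% interval 1.30 to 3.85, limma adjusted p = 0.0188) and was higher with cabozantinib than in undifferentiated cells by 2.53 (SE 0.57, adjusted p = 0.0216). Between cabozantinib-treated and differentiated cells it differed by -0.05 (95% interval -1.33 to 1.23, adjusted p = 0.983). The rise passed in 14 of 17 alternatives. It was lost with no filter on dim probes (limma adjusted p = 0.0539). It was also lost without undifferentiated array 2 (log2 difference 1.79) or differentiated array 2 (1.97). The call against undifferentiated cells was lost with no filter on dim probes (limma adjusted p = 0.0602). It was also lost without cabozantinib array 1 (log2 difference 2.71) or 2 (2.34).

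Pros1 was at 0.99 and 2.26 on the undifferentiated arrays, at 1.29 and 0.37 on the differentiated arrays and at 2.06 and 1.50 on the cabozantinib arrays. The undifferentiated arrays overlapped both other groups, and the cabozantinib arrays lay above the differentiated ones. Pros1 differed by -0.80 after differentiation (95% interval -2.16 to 0.57, adjusted p = 0.580) and by 0.95 with cabozantinib (95% interval -0.42 to 2.32, adjusted p = 0.423). Without undifferentiated array 1 the first difference was -1.80 and passed (adjusted p = 0.0378).

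Of the 3 receptors, Axl fell after differentiation. It was at 3.36 and 3.78 on the undifferentiated arrays, at 1.81 and 1.22 on the differentiated arrays and at 2.61 and 2.53 on the cabozantinib arrays. No group overlapped another, and the cabozantinib arrays were intermediate. The log2 difference after differentiation was -2.05 (SE 0.51, limma adjusted p = 0.0307), and the cabozantinib difference of 1.05 did not pass (SE 0.51, adjusted p = 0.254). The fall passed in 6 of 17 alternatives and was lost without undifferentiated array 2 (0.0674), differentiated array 1 (0.0885) or 2 (0.439), or either cabozantinib array (0.0507). Gas6 and Axl therefore lay on opposite sides of 0 in the same comparison. Mertk differed by 0.97 after differentiation (SE 0.62, adjusted p = 0.460) and by 1.06 with cabozantinib (SE 0.62, adjusted p = 0.358), and Tyro3 by -0.49 and 0.17 (SE 0.60, adjusted p = 0.809 and 0.947). None of the 3 genes of the vitamin K cycle (Ggcx, Vkorc1 and Vkorc1l1), whose carboxylation makes GAS6 and protein S active, was called in these comparisons. Of all probes, 10.0% were called after differentiation and 2.70% with cabozantinib.

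GDNF, a survival factor for neurons and the kidney bud, signals through RET. Gdnf was at 1.26 and 1.03 on the undifferentiated arrays, at -1.31 and -1.29 on the differentiated arrays and at -1.40 and -1.32 on the cabozantinib arrays. The 2 undifferentiated arrays stood far above the other 4, which lay within 0.11 of each other. Gdnf fell after differentiation (log2 difference -2.45, SE 0.48, 95% interval -3.53 to -1.37, limma adjusted p = 0.0111), and differed by -0.06 between cabozantinib-treated and differentiated cells (95% interval -1.14 to 1.02, adjusted p = 0.979). Against undifferentiated cells it was lower with cabozantinib by a log2 difference of -2.51 (SE 0.48, adjusted p = 0.0125). The fall passed in 15 of 17 alternatives and was lost without differentiated array 1 (0.0958) or 2 (0.0813), and the call against undifferentiated cells was lost without cabozantinib array 1 (0.147) or 2 (0.125).

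Ret was at -1.47 and -1.35 on the undifferentiated arrays, at -3.20 and -3.79 on the differentiated arrays and at -4.43 and -4.20 on the cabozantinib arrays. The undifferentiated arrays were again the highest, and no group overlapped another. Ret fell after differentiation (log2 difference -2.08, SE 0.50, limma adjusted p = 0.0275, passed in 10 of 17 alternatives), and the call was lost without undifferentiated array 2 (0.0709) or differentiated array 1 (0.0829) or 2 (0.422). Its cabozantinib difference was -0.82 (SE 0.50, adjusted p = 0.392). Gfra1, the co-receptor, was well above background on the 4 arrays without cabozantinib and on neither cabozantinib array. Its level was at least 2.95-fold lower with cabozantinib than in differentiated cells, with an adjusted p of 0.0707 that missed the threshold. That bound holds on the 75th-percentile scale, on which the measured log2 difference was -1.97, and the difference was -1.17 after quantile normalization. The related RET ligands Nrtn, Artn and Pspn differed after differentiation by -0.04, -1.62 and -0.15 (adjusted p = 0.991, 0.0685 and 0.962).

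**Figure D3:**
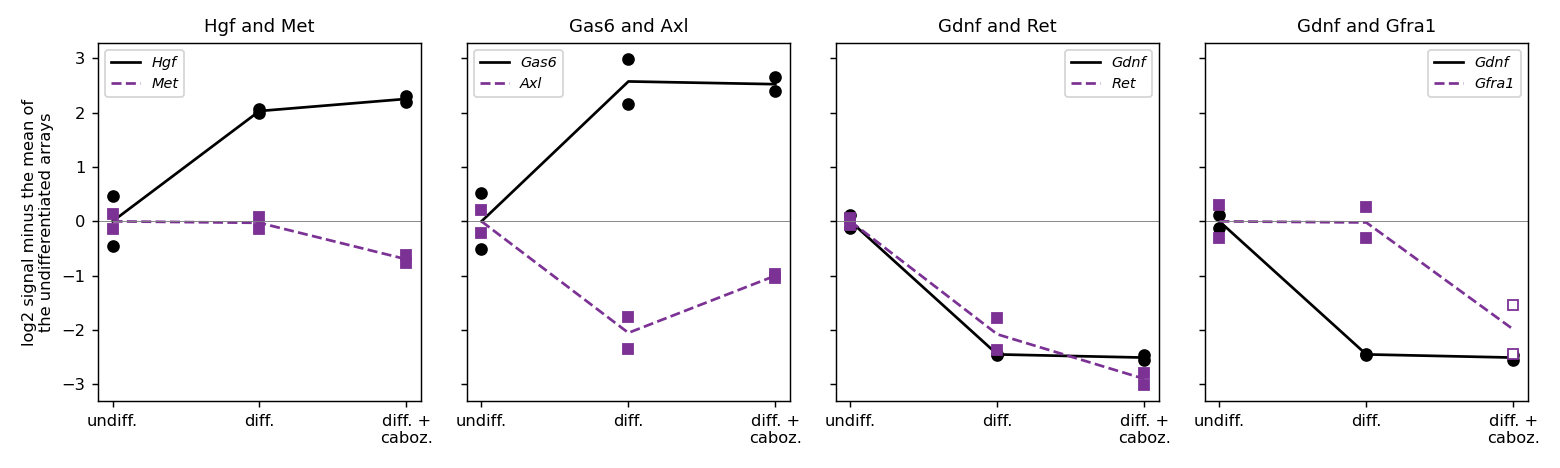
Log2 signals of ligands (black circles, solid line) and their receptors or co-receptor (purple squares, dashed line) on each array, after subtracting the mean of the probe's 2 undifferentiated arrays; lines join group means and open symbols mark groups with no array well above background. Hgf rises by 2.03 with Met at -0.03, Gas6 rises by 2.58 with Axl at -2.05, and the differentiated means of Gdnf and Ret lie at -2.45 and -2.08.

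The angiopoietins act on TIE2 of blood vessels, where ANGPT1 activates the receptor and ANGPT2 often opposes it. Angpt1 was at 0.98 and 1.40 on the undifferentiated arrays, at 2.87 and 2.89 on the differentiated arrays and at 3.08 and 3.19 on the cabozantinib arrays. The 3 groups did not overlap, and the cabozantinib arrays were the highest. The differentiation difference of 1.69 missed the threshold (SE 0.49, 95% interval 0.60 to 2.77, limma adjusted p = 0.0583), while the difference between cabozantinib-treated and undifferentiated cells of 1.94 passed it (SE 0.49, adjusted p = 0.0308). The first passed in 5 of 17 alternatives, among them without undifferentiated array 1 (log2 difference 1.51), and the latter in 11 of 17. The latter was lost after quantile normalization (limma adjusted p = 0.0561) and normexp correction (0.121), with the authors' values (0.0751) and with no filter on dim probes (0.0799). It was also lost without cabozantinib array 1 (log2 difference 1.88) or 2 (1.99). Between cabozantinib-treated and differentiated cells Angpt1 differed by 0.25 (95% interval -0.83 to 1.34, adjusted p = 0.879), so the passing of one comparison and not the other does not show that they differ.

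Angpt2 was at 0.27 and 0.95 on the undifferentiated arrays, at 1.17 and 0.87 on the differentiated arrays and at 1.43 on both cabozantinib arrays. The first 2 groups overlapped and the cabozantinib arrays were the highest, with differences of 0.41 after differentiation and 0.41 with cabozantinib (SE 0.51, adjusted p = 0.805 and 0.761). The difference of 0.83 between cabozantinib-treated and undifferentiated cells did not pass (adjusted p = 0.299) except without undifferentiated array 2 (1.24, adjusted p = 0.0457) and under a crossed pairing. Neither Tek nor Tie1, the receptors of this family, was well above background on any array.

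Stem cell factor, the product of Kitl, supports blood-forming stem cells, mast cells and melanocytes. Kitl was dim. Its probe was well above background on undifferentiated array 2 and on both differentiated arrays, and on neither cabozantinib array. The values were -6.12 and -4.21 in undifferentiated cells, -3.72 and -3.36 in differentiated cells and -5.59 and -5.70 with cabozantinib. The differentiated arrays were the highest of the 6 and did not overlap either other group. On the 75th-percentile scale, the level with cabozantinib was at least 3.82-fold lower than in differentiated cells. The measured log2 difference was -2.10 (SE 0.59, 95% interval -3.42 to -0.79), and its adjusted p of 0.0730 in limma missed the threshold. The difference was smaller after quantile normalization (-1.35), median subtraction (-1.44) and normexp correction (-0.96), and it was -2.72 without cabozantinib array 1 and -1.48 without cabozantinib array 2. It passed in 4 of 16 alternatives, which were the fit on only the arrays compared (0.0297), the same fit without undifferentiated array 1 or 2 (0.0297) and the crossed pairing (0.0249). After differentiation the difference was 1.63 (SE 0.59, limma adjusted p = 0.131), and 0.20 after normexp correction. Without undifferentiated array 2 it was 2.51, set against undifferentiated array 1 alone, which was not well above background. Kit, its receptor, was well above background on 1 undifferentiated and 1 differentiated array only. Of the proteases that release the soluble form, Adam17 differed by 1.16 and -0.70 in the differentiation and cabozantinib comparisons (adjusted p = 0.266 and 0.539) and Mmp9 was well above background on 1 array of each condition without cabozantinib.

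FLT3 ligand drives dendritic cell and early lymphoid growth. Flt3l was at -0.30 and -1.14 on the undifferentiated arrays, at 0.31 and 0.54 on the differentiated arrays and at -0.27 and 0.03 on the cabozantinib arrays. The order was undifferentiated, cabozantinib, differentiated, with no overlap between groups and no test passed. The differentiation difference was 1.15 (SE 0.52, 95% interval -0.02 to 2.32, adjusted p = 0.247), and 1.70 without undifferentiated array 1 (adjusted p = 0.0360). The cabozantinib difference was -0.54 (95% interval -1.71 to 0.63, adjusted p = 0.656), and 0.12 after subtracting each array's median. Flt3, its receptor, was near background, between -4.31 and -5.70.

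VEGFA is the main growth factor of blood vessels and is made by osteoblasts and other cells short of oxygen. Its brighter probe was at 1.19 and 1.97 on the undifferentiated arrays, at 1.44 and 0.59 on the differentiated arrays and at 0.16 and -0.19 on the cabozantinib arrays. The first 2 groups overlapped, and both cabozantinib arrays lay below the other 4. Vegfa differed by -0.56 after differentiation (SE 0.55, adjusted p = 0.713), by -1.03 with cabozantinib (SE 0.55, 95% interval -2.26 to 0.20, adjusted p = 0.309) and by -1.60 between cabozantinib-treated and undifferentiated cells (SE 0.55, 95% interval -2.83 to -0.37, adjusted p = 0.0806). The last passed in 4 of 17 alternatives, among them without undifferentiated array 1 (log2 difference -2.29, adjusted p = 0.0380). The other Vegfa probe was well above background on undifferentiated array 2 only and was not tested, at -5.49 and -5.31, -6.05 and -7.43, and -7.72 and -7.71 in the same order of conditions.

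VEGFC, the growth factor of lymphatic vessels, showed no separation of the groups. Vegfc was at -1.70 and -1.18, -1.05 and -1.35, and -1.15 and -1.33 in undifferentiated, differentiated and cabozantinib-treated cells, and every pair of groups overlapped. Its differences were 0.24 after differentiation (95% interval -0.88 to 1.36) and -0.04 with cabozantinib (95% interval -1.17 to 1.08), and no test passed (adjusted p = 0.923 and 0.983). Of 5 genes for its cofactor and the proteases that mature it, 4 were tested. None was called in either comparison, where 10.0% and 2.70% of all probes were called.

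Kdr, which encodes VEGFR2, overlapped between undifferentiated cells (0.16 and -0.61) and differentiated cells (-0.40 and 0.11), and was at -1.02 and -0.73 with cabozantinib, below both. Its differences were 0.08 and -0.73 (SE 0.53, adjusted p = 0.981 and 0.492). Flt1, which encodes VEGFR1, differed by 0.29 and 0.25 (SE 0.53, adjusted p = 0.907 and 0.897). Flt4, which encodes VEGFR3, was well above background on the 4 arrays without cabozantinib and on neither cabozantinib array, at least 1.62-fold lower than in differentiated cells (limma adjusted p = 0.0498). That call was lost without differentiated array 1 (0.0560) or 2 (0.549) and without cabozantinib array 1 (0.497) or 2 (0.175). Nrp1, a VEGF co-receptor, was at -3.48 and -2.04 in undifferentiated, -4.83 and -6.24 in differentiated and -2.55 and -4.24 in cabozantinib-treated cells. It fell after differentiation (log2 difference -2.77, SE 0.74, limma adjusted p = 0.0422), a call that passed in 8 of 16 alternatives. The call was lost without undifferentiated array 2 or differentiated array 2, among others. Nrp2 did not pass (0.64, SE 0.49, adjusted p = 0.587).

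Across the 15 receptors and co-receptors, 13 were tested at their brightest probe. After differentiation 3 were called lower (Axl, Ret and Nrp1) and none higher, where 5.06% of all probes were called lower, with a median difference of -0.03 against 0.08 over all probes. With cabozantinib 1 was called lower (Flt4) and none higher, where 2.56% of all probes were called lower, with a median of -0.47 against -0.27. After quantile normalization both of these medians were -0.06. Of 14 related ligands of the same or neighbouring families, 1 was called, as higher, in the differentiation comparison, where 4.97% of all probes were called higher, and none with cabozantinib. It was Pdgfb, which encodes the platelet-derived growth factor chain that recruits mural cells, at -1.66 and -2.23 in undifferentiated and -0.24 and 0.14 in differentiated cells (log2 difference 1.89, SE 0.50, limma adjusted p = 0.0428). That call passed in 8 of 17 alternatives. It was lost without undifferentiated array 2, differentiated array 1 or 2, or either cabozantinib array, among others.

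Because Vegfa is a known hypoxia target, 12 other hypoxia target genes were set beside it. In the cabozantinib comparison 11 of the 12 had differences below 0, like Vegfa, with a median of -0.74 against -0.27 over all probes (-0.62 against -0.06 after quantile normalization). The count below 0 was 10 of 12 after quantile normalization and 6 of 12 after subtracting each array's median, with a median of -0.07 against 0.39. Only 1 of the 12 was called, as lower, where 2.56% of all probes were called lower. It was Egln3, which encodes a prolyl hydroxylase that marks HIF for degradation. Egln3 was at 0.25 and 0.27, 0.16 and -0.24, and -2.35 and -2.25 in undifferentiated, differentiated and cabozantinib-treated cells, so that the cabozantinib arrays stood far below the rest (log2 difference from differentiated cells -2.26, SE 0.49, limma adjusted p = 0.0485). The call passed in 6 of 17 alternatives and was lost without any 1 of the 4 arrays compared, with adjusted p values of 0.231, 0.300, 0.584 and 0.234 without differentiated array 1, differentiated array 2, cabozantinib array 1 and cabozantinib array 2. Ankrd37 was called after differentiation (log2 difference 2.50, SE 0.51, limma adjusted p = 0.0126, lost without undifferentiated array 2 with 0.0535 or differentiated array 2 with 0.196), and its cabozantinib difference of -2.15 did not pass (SE 0.51, adjusted p = 0.0527). After differentiation the list had 4 genes above 0 and 8 below, with a median of -0.22 against 0.08.

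**Figure D4:**
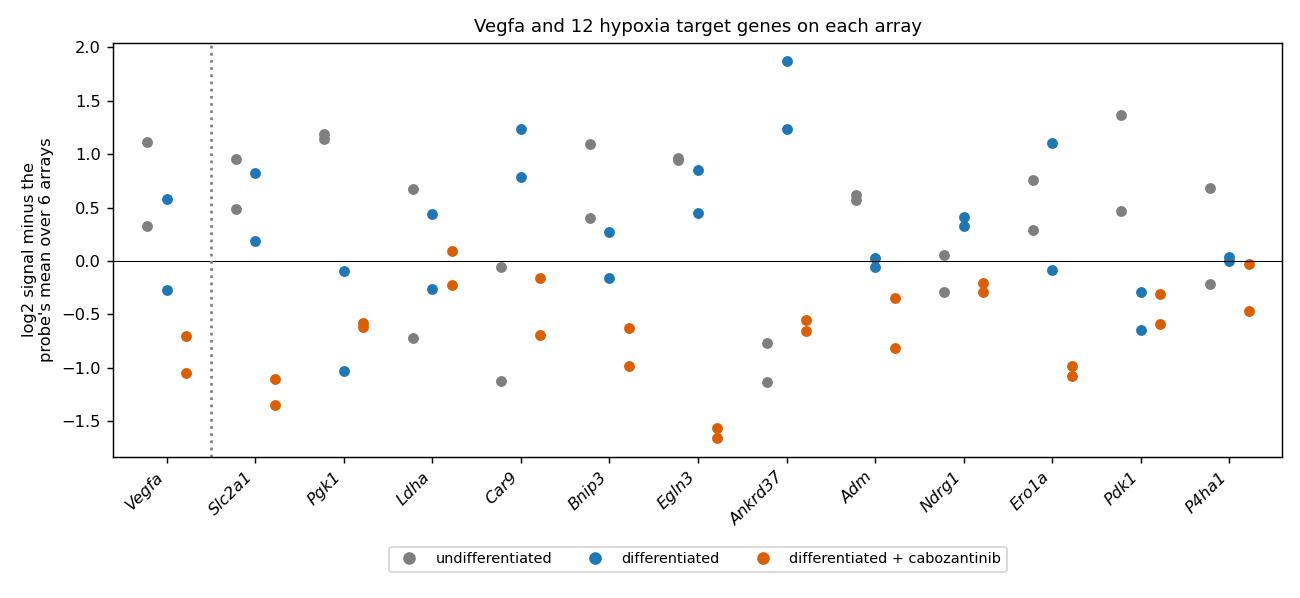
Log2 signals of Vegfa (left of the dotted line) and of 12 hypoxia target genes on each of the 6 arrays, after subtracting each probe's mean over the arrays. The cabozantinib arrays (orange) lie below all other arrays for Vegfa, Slc2a1, Egln3 and Ero1a among others. Of all probes, 43.6% lay wholly below the differentiated arrays and 44.7% wholly below the undifferentiated arrays. The group mean is below that of differentiated cells for 11 of the 12 genes, and for 6 of 12 after subtracting each array's median.

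The probes whose pattern over the 6 arrays was most like that of the 3 ligands with the widest range of group means were found by the root mean square difference of centred log2 values, among 6526 probes of other named genes. For Gas6 they were Ncf4 (0.0966), Ctf1 (0.101) and Fam89a (0.107). For Gdnf they were S100a8 (0.120), Gys1 (0.121) and Ncl (0.126). For Hgf they were Clec11a (0.102), Gulp1 (0.150) and Fam43a (0.156). With 6 arrays in 3 groups many probes share such patterns.

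Markers of other cell types moved with differentiation in these bulk cultures, in which fewer cells of a type and less RNA per cell cannot be told apart. After differentiation 4.97% of all probes were called higher and 5.06% lower, and with cabozantinib 0.140% and 2.56%. Of 5 macrophage markers tested, Adgre1 and Csf1r were called higher after differentiation, and none was called lower. Of these 5 markers 4 had differences above 0 and 1 lay below, at -1.28. Adgre1 was at 2.24 and 2.51, 6.23 and 6.59, and 5.98 and 5.77 in undifferentiated, differentiated and cabozantinib-treated cells. The summed macrophage signal was 22.6 to 44.0 times the array's 75th percentile in undifferentiated, 196 to 297 times in differentiated and 174 to 217 times in cabozantinib-treated cells. Gas6 and Hgf lay in the same order of undifferentiated against the rest. Of 5 adipocyte markers, Adipoq, Fabp4 and Cfd were called higher after differentiation. The dim Plin1 went the other way, from a mean of -4.97 in undifferentiated to -6.50 in differentiated cells. The summed adipocyte signals were 1.50 to 1.99, 23.7 to 49.7 and 8.07 to 8.19 times in the same order of conditions. Cfd was called lower with cabozantinib, a call that passed in 8 of 16 alternatives. Of 5 neural and glial markers, Sox10 was among those called higher and Tubb3 was called lower, the latter in the direction of Gdnf, with summed signals of 1.80 to 1.89, 2.31 to 5.19 and 2.32 to 2.81 times. Of 6 endothelial markers 5 were tested, with summed signals between 0.408 and 0.751 times on every array. Cdh5 among them was called higher after differentiation (passed in 11 of 16 alternatives) and lower with cabozantinib (6 of 16). Acta1 of the 4 muscle markers tested was called lower after differentiation, where the median difference of the list was -0.05. Col9a1 of the 5 chondrocyte markers was called higher, in a list with 2 differences above 0 and 3 below (median -0.01). The osteoblast markers Ibsp, Dmp1 and Phex were called higher after differentiation, in a list of 8 with 6 differences above 0 and 2 below. In the mural list Rgs5 and Kcnj8 were well above background on no array. Abcc9, well above background on neither cabozantinib array, was called lower with cabozantinib, a call that passed in 5 of 16 alternatives. The median difference of the 3 mural markers tested was -0.08 with cabozantinib, against -0.27 over all probes. The part of these cell types in the ligand levels was not tested.

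**Figure D5:**
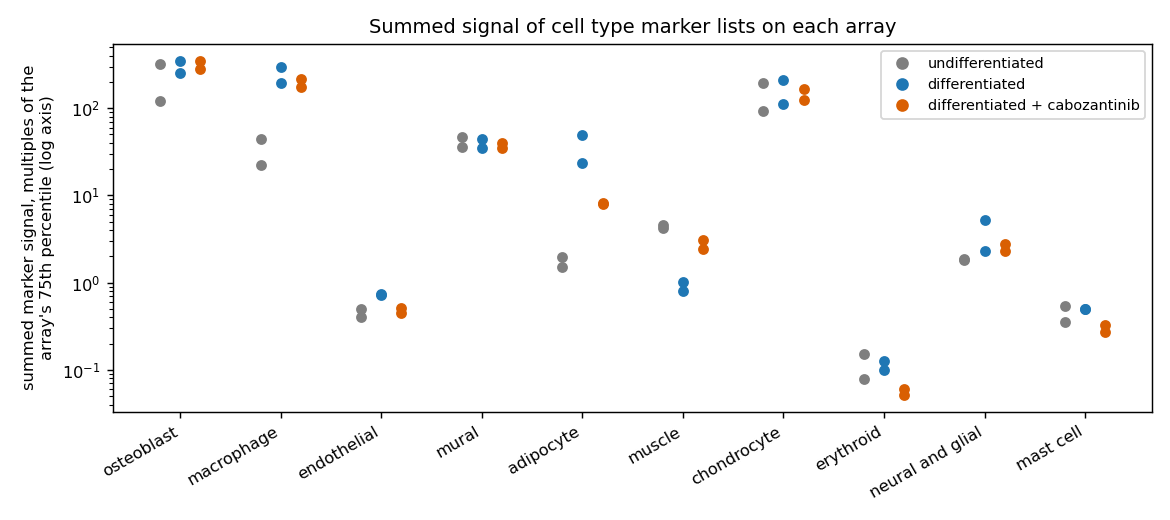
Summed signal of each marker list, as a multiple of the array's 75th percentile on a log axis, with 1 point for each array. Macrophage sums are 22.6 to 44.0 in undifferentiated and 174 to 297 in all cells kept in differentiation medium, and adipocyte sums are highest in differentiated cells without cabozantinib.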

How the data were processed

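Single-dye Agilent whole mouse genome arrays were read in 6 samples, 2 for each of 3 conditions, grouped by the labels. The deposited scanner files, made by the authors' service with Feature Extraction 11.0.1.1 per the file headers (build mm9), hold a processed intensity for each spot, background-subtracted, detrended and not scaled between arrays. The authors also deposited log2 values of 30439 probes with nearly equal medians on the 6 arrays (7.50 to 7.51), and their normalization steps are not given in the sources used here. They served as an alternative.

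Control and outlier spots were removed, log2 intensities averaged over the spots of a probe, and the 75th percentile over an array's probes subtracted (624.6 to 1773 in signal units). A probe was kept (27236 in all) where 2 or more arrays had it well above background. Probes were named through RefSeq accessions for 69.1% of 39429 probes. The 3 conditions entered a single limma fit (version 3.58.1, R 4.3.3) that kept the replicate number as a block, since the study's statistics name a paired test. This left 2 residual and 7.69 prior degrees of freedom, and the number of arrays limits the precision. P values were adjusted by Benjamini-Hochberg over all probes tested and called under 0.05. The code was tested on simulated data.

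The ligands and all gene lists were chosen with earlier results of these data known. Named were every ligand probe, every receptor at its brightest probe, each gene of the other lists called after differentiation or with cabozantinib, and for 3 ligands the 3 most similar probes. A few genes of these lists are not reported here. Alternatives were quantile normalization, subtraction of the median, normexp correction (offset 50) on median signals in place of mean signals, the authors' values, other filters on dim probes, no replicate block, only the arrays compared, trend and robust, each array left out in turn and the methods' t-test. The percentile over spots and a crossed pairing were added after seeing the data. Leaving out 1 array of the condition outside a comparison gave the same fit as only the arrays compared. Counts of alternatives passed therefore hold that fit more than once. Files were read with Python 3.11.15 and pandas 2.3.3, and figures drawn with matplotlib 3.10.9.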

Additional observations from a re-analysis of the deposited data

How the results depend on the processing

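The numbers of probes called over the whole array depended on the processing, most of all with cabozantinib, where 734 probes were called against differentiated cells. That number was 0 after quantile normalization, after median subtraction, with the authors' values, with no filter on dim probes and with the methods' t-test, 1 after normexp correction and with the percentile over spots, 2 where all 6 arrays had to be well above background, 3414 with no replicate block, 6475 with only the arrays compared and 8295 with the crossed pairing. Against 2730 probes after differentiation, the authors' values gave 1747, no filter 1729, normexp 973 and the crossed pairing 7363. Against 3719 probes between cabozantinib-treated and undifferentiated cells, quantile normalization gave 1527, normexp 640, the authors' values 1171, no filter 1385, the filter on all 6 arrays 1551, no replicate block 6653 and the crossed pairing 12316. The methods' t-test called 0 probes in every comparison after adjustment and, at more than 2-fold and an unadjusted p under 0.05, 1090, 2669 and 1518 probes, with Gdnf the only ligand, in the comparisons with undifferentiated cells. The limma alternatives with 0 calls with cabozantinib had 4803 to 6652 probes at an unadjusted p under 0.05. The cause of these differences was not tested.

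Of the ligands, 3 were called after differentiation, against 1 with no filter, 5 with the crossed pairing and 0 with the methods' t-test. With cabozantinib 0 were called, against 1 with only the arrays compared and 3 with the crossed pairing. Between cabozantinib-treated and undifferentiated cells 4 were called, against 2 after normexp and with the authors' values, 1 with no filter and 0 with the methods' t-test. Leaving out 1 array at a time gave 0 to 6, 0 to 1 and 0 to 5 ligands, and 1589 to 5313, 49 to 6475 and 823 to 9961 probes, in the differentiation comparison, with cabozantinib, and between cabozantinib-treated and undifferentiated cells. A condition left with 1 array was assumed to vary like the others.

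Without the replicate block, 4, 0 and 5 ligands were called in the same order. Deviations from the condition means over 27196 probes correlated at -0.51 and -0.53 between undifferentiated arrays and the differentiated and cabozantinib arrays of the same number, and at 0.26 between differentiated and cabozantinib arrays. With 2 arrays a condition this does not settle whether the numbers pair the arrays. The crossed pairing exchanged the undifferentiated numbers. A slide block could not be fitted for cabozantinib, since each scan held whole conditions, and was not run for differentiation, whose arrays share a scan.

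Some ligand differences changed sign. With cabozantinib against differentiated cells, Gas6 was 0.11 after quantile normalization, 0.61 after median subtraction and 0.11 with the authors' values (-0.66 to 0.55 with 1 array left out), Vegfc 0.044, 0.62 and 0.048 (-0.28 to 0.19) and Gdnf 0.027, 0.61 and 0.030 (-0.15 to 0.037), Flt3l was 0.12 after median subtraction, and Hgf was -0.074 to 0.52 with 1 array left out. Against undifferentiated cells with cabozantinib, Kitl was 0.42 after quantile normalization, 0.23 after median subtraction and 0.42 with the authors' values (-1.36 to 0.41 with 1 array left out), Vegfc -0.079 after normexp (-0.19 to 0.58), and Pros1 -0.85 to 1.16. After differentiation, leaving out 1 array gave Pros1 -1.80 to 0.21, Vegfa -1.25 to 0.12, Vegfc -0.14 to 0.62 and Angpt2 -0.0055 to 0.83. Of the other ligand differences under the alternatives, 427 kept direction and call, 30 lost the call and 21 gained it. Signal over background limits Kitl and the dimmer Vegfa probe most.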
